A study of Homo sapiens with 32 samples.

Results

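The genes of the aryl hydrocarbon receptor (AHR) pathway are described here in HGrC1 cells, a human granulosa cell line, after long exposure to perfluorooctane sulfonate (PFOS). The 7 members are AHR, ARNT, AHRR, CYP1A1, CYP1B1, TIPARP and ALDH3A1, chosen by gene symbol among 47137 gene entries, of which 18583 held values. All 7 had values in every library and passed the filter on low counts. Cells of 4 cryopreserved vials were each divided into 4 cultures, given vehicle (0.05% DMSO) or PFOS (0.01 µM, 0.1 µM and 1 µM), and sampled after 6 and 12 weeks, so that 8 groups held 4 libraries each. All groups, controls included, grew in medium with 10% fetal bovine serum and 100 nM of a steroid hormone, which the sample labels call estradiol and the study's methods testosterone. HGrC1 is 1 established, non-luteinised line, so the libraries are vials of 1 line and not separate donors.

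AHR is a transcription factor that waits in the cytosol in a complex with HSP90 and other chaperones, and moves to the nucleus when it binds a ligand such as a dioxin, a polycyclic aromatic hydrocarbon or a metabolite of tryptophan. There it pairs with ARNT and binds DNA elements whose core reads GCGTG. CYP1A1 and CYP1B1, which encode cytochrome P450 enzymes, are classical targets, and so are TIPARP, a mono-ADP-ribosyltransferase, and AHRR, a repressor related to AHR, which both limit the activity of the receptor. ALDH3A1 encodes an aldehyde dehydrogenase that is induced through AHR in some tissues. In the ovary the pathway is known for its part in responses to dioxin-like chemicals, and CYP1B1 converts estradiol to a catechol estrogen.

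On build GRCh38 AHR lies at chr7:17298652-17346147 (plus strand), ARNT at chr1:150809713-150876599 (minus) and AHRR at chr5:321714-438285 (plus). CYP1A1 lies at chr15:74719542-74725528 (minus), CYP1B1 at chr2:38067509-38076151 (minus), TIPARP at chr3:156674590-156706770 (plus) and ALDH3A1 at chr17:19737984-19748298 (minus). Counts are for whole genes, so that no exon or UTR is resolved.

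The sequence before the transcription start was read for 5 of the 7 members from RefSeq (build GRCh38.p14). CYP1B1 and ALDH3A1 are named only. The windows of 3 AHR targets are shown because they hold the AHR core element, printed in capitals among lower-case bases. The element was searched as GCGTG on both strands, so that a match on the reverse strand appears as CACGC, and 32.2% of 35116 promoter windows of 250 bases held at least 1 match. The CYP1A1 window (chr15:74725529-74725778, minus strand) held 1 match, 57 bases before the start. The first TIPARP start (chr3:156674340-156674589, plus strand) had 2 matches, both on the reverse strand, 208 and 142 bases before it. The first AHRR start (chr5:321464-321713, plus strand) had 1 match, 30 bases before it, which also had the longer form TNGCGTG, held by 4.52% of the windows. A further AHRR start had 2 core matches, and further TIPARP starts, AHR and ARNT had 0 in their windows. A match is a description of these letters.
CYP1A1: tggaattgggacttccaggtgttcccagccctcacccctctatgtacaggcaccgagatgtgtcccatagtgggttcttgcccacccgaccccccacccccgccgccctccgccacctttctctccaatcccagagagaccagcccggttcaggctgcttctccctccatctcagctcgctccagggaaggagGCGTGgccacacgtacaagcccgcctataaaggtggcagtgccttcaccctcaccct
TIPARP: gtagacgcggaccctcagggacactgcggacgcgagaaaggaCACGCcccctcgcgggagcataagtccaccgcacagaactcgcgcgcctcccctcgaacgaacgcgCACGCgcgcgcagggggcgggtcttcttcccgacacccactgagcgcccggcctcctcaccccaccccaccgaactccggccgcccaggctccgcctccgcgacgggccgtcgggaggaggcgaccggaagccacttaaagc
AHRR: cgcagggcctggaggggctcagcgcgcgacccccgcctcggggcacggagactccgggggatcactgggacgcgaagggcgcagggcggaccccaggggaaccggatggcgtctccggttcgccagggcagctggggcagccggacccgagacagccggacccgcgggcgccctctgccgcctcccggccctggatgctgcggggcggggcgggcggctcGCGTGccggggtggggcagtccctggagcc

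Total counts per library lay between 17907057 and 18553350. The granulosa markers GATA4 (78.0 ± 2.55 TPM, SD, n = 4, in 6-week controls), WT1 (35.5 ± 1.94 TPM) and AMH (13.7 ± 2.2 TPM) were expressed, FOXL2 was low (0.725 ± 0.135 TPM), and CYP19A1, which encodes aromatase, had 0 counts in all 6-week libraries. The summed counts of the 12 granulosa markers lay between 3747 and 4630. The 11 hepatocyte markers summed to 214 to 312 counts in 6-week controls and 252 to 326 at 0.01 µM, but to 399 to 500 at 0.1 µM and 390 to 453 at 1 µM. AFP, AHSG and APOB had 0 counts in all libraries of the first 2 of these groups. At 12 weeks every group had such counts (310 to 1460 in controls, 360 to 389 at 0.01 µM, 311 to 393 at 0.1 µM and 371 to 523 at 1 µM), and the 1460 came from control replicate 3. Theca markers had 0 to 5 counts. Endothelial markers summed to 300 to 461 counts at 6 weeks and 65 to 166 at 12 weeks, and leukocyte markers, mostly CD68, to 301 to 662. In such bulk samples fewer cells of a type and less RNA per cell cannot be told apart.

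The members spanned a wide range of levels per transcript length (TPM, scaled to the same total in each library). CYP1B1 was highest, with a median of 117 TPM over 32 libraries (77.63 to 161.17), followed by TIPARP at 49.5 TPM (37.60 to 86.86). The receptor partners followed, with ARNT at 19.0 TPM (16.33 to 21.55) and AHR at 15.6 TPM (13.03 to 18.81). AHRR stood at 5.40 TPM (3.79 to 6.93), ALDH3A1 at 0.725 TPM (0.31 to 1.51) and CYP1A1 at 0.36 TPM (0.07 to 0.92). Most neighbours in this order did not overlap within any group. The exceptions were ARNT and AHR, which overlapped in 2 of 8 groups (controls and 1 µM at 12 weeks), and ALDH3A1 and CYP1A1, which overlapped in 3 of 8 (both controls and 0.01 µM at 12 weeks). The levels of the P450 pair thus differed widely, CYP1A1 resting on 2 to 27 counts per library and CYP1B1 on 4498 to 10026.

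**Figure D1:**
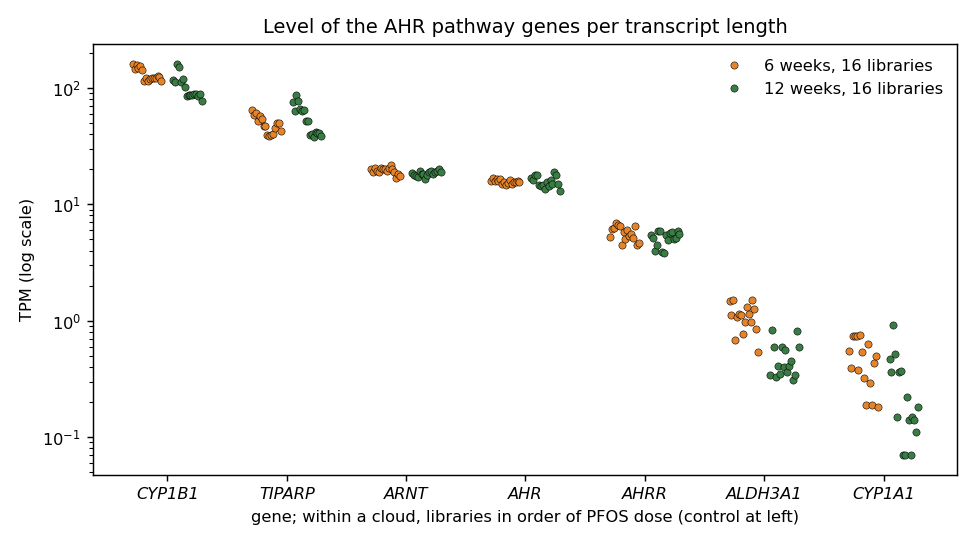
TPM of the 7 genes on a log scale, each point 1 library, with 6-week libraries in orange and 12-week libraries in green, ordered by PFOS dose from left to right within a cloud. CYP1B1 and TIPARP sit above 37 TPM in every library and slope down with dose at 12 weeks, and CYP1A1 and ALDH3A1 sit under 1.6 TPM.

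The first comparisons set each PFOS dose against the control of the same time, which asks how the pathway stood after long exposure. TIPARP and CYP1B1 were lower at 0.1 µM after 6 weeks, and at 0.1 and 1 µM after 12 weeks. CYP1A1 was lower at 0.1 µM after 12 weeks. No member was called higher in any of the 6 comparisons, and AHR, ARNT, AHRR and ALDH3A1 were not called in any of them by edgeR. Called means that p, adjusted by Benjamini and Hochberg's method over every gene tested, did not exceed 0.05 (edgeR's quasi-likelihood test on the 16 libraries of a time).

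TIPARP, the feedback ADP-ribosyltransferase, had 153, 138, 144 and 121 CPM (counts scaled to library size by TMM) in the 6-week controls. At 0.01 µM its values were 136, 128, 114 and 111 CPM, at 0.1 µM 93.7, 91.7, 95.3 and 99.2 CPM, and at 1 µM 110, 121, 120 and 107 CPM. The 0.1 µM libraries all lay below every control, whereas the ranges at 0.01 and 1 µM overlapped that of the controls. The log2 fold change was −0.55 (SE 0.074, edgeR adjusted p = 0.00174) at 0.1 µM, a level 31.8% lower, in 4 of 4 vials. At 1 µM it was −0.28 (SE 0.0731, edgeR adjusted p = 0.129) and at 0.01 µM −0.19 (SE 0.0727, edgeR adjusted p = 0.462), both in the direction of a lower level in 4 of 4 vials.

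After 12 weeks the TIPARP controls stood at 186, 155, 218 and 191 CPM. The 0.01 µM libraries had 157, 156, 162 and 134 CPM, those at 0.1 µM 127, 95.4, 95.9 and 91.0 CPM, and those at 1 µM 99.7, 97.6, 95.8 and 91.6 CPM. Every library at 0.1 and 1 µM lay below every control and below every 0.01 µM library. The log2 fold change was −0.88 (SE 0.105, edgeR adjusted p = 0.000778) at 0.1 µM and −0.97 (SE 0.105, edgeR adjusted p = 0.000338) at 1 µM, levels 45.5% and 48.8% lower. At 0.01 µM it was −0.30 (SE 0.103, edgeR adjusted p = 0.565), with lower values in 3 of 4 vials.

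CYP1B1, the estradiol-hydroxylating P450, had 514, 463, 501 and 469 CPM in the 6-week controls. Its values were 487, 452, 377 and 388 CPM at 0.01 µM, 368, 378, 390 and 406 CPM at 0.1 µM, and 397, 422, 404 and 389 CPM at 1 µM. Both higher doses lay wholly below the controls, and the 0.01 µM libraries overlapped both. The log2 fold change was −0.34 (SE 0.0674, edgeR adjusted p = 0.0159) at 0.1 µM, a level 21.0% lower. At 1 µM it was −0.27 (SE 0.0673, edgeR adjusted p = 0.101) and at 0.01 µM −0.19 (SE 0.0672, edgeR adjusted p = 0.459). The call at 0.1 µM was lost without control replicate 3 (adjusted p = 0.0607) or without 0.1 µM replicate 1 (adjusted p = 0.0579), and in a fit of all 32 libraries (adjusted p = 0.0937).

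After 12 weeks the CYP1B1 controls fell into a lower and a higher pair, at 385 and 372 CPM (replicates 1 and 2) and 547 and 509 CPM (replicates 3 and 4). PFOS libraries had 367, 400, 350 and 301 CPM at 0.01 µM, 286, 285, 279 and 292 CPM at 0.1 µM and 288, 276, 283 and 248 CPM at 1 µM. The 0.1 and 1 µM libraries again lay below every control. The log2 fold change was −0.67 (SE 0.111, edgeR adjusted p = 0.0088) at 0.1 µM and −0.73 (SE 0.111, edgeR adjusted p = 0.00747) at 1 µM, levels 37.2% and 39.8% lower. At 0.01 µM it was −0.36 (SE 0.11, edgeR adjusted p = 0.565). Both calls were lost when only the 8 libraries of the groups compared entered the fit (adjusted p = 0.0674 and 0.0803). CYP1B1 overlaps CYP1B1-AS1, a gene on the opposite strand that had no values under that name here. The libraries were stranded, but whether the counting used strand is not given in the sources used here, so reads of the 2 genes may not be fully separated.

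CYP1A1, the other P450 target, was near the limit of detection, so its values are given as counts. The 6-week controls had 15, 11, 20 and 20 counts, against 20, 10, 21 and 15 at 0.01 µM, 9, 5, 17 and 8 at 0.1 µM and 5, 12, 14 and 5 at 1 µM. These ranges overlapped. The log2 fold change was −0.74 (SE 0.357, edgeR adjusted p = 0.237) at 0.1 µM, −0.85 (SE 0.363, edgeR adjusted p = 0.302) at 1 µM and 0.00 at 0.01 µM (SE 0.32).

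At 12 weeks the CYP1A1 controls had 13, 10, 27 and 15 counts. The 0.01 µM libraries had 4, 10, 11 and 2 counts, the 0.1 µM libraries 2, 6, 4 and 2, and the 1 µM libraries 4, 4, 3 and 5. At 0.1 and 1 µM no library reached the lowest control. The log2 fold change was −2.17 (SE 0.459, edgeR adjusted p = 0.0204) at 0.1 µM. Of the members' changes under PFOS, only this one was both called and above 2-fold, as 0.0942% of all genes tested were in this comparison. The value was −2.0 (SE 0.446, edgeR adjusted p = 0.0635) at 1 µM and −1.25 (SE 0.401, edgeR adjusted p = 0.565) at 0.01 µM. By DESeq2 and the same thresholds, the study listed CYP1A1 as differentially expressed at both 0.1 and 1 µM. DESeq2 on the 16 libraries of 12 weeks called it here at 0.1 µM but not at 1 µM. At 1 µM it called only CYP1B1 and TIPARP of the 5 members to which it gave an adjusted p. With the vial as a replicate block the CYP1A1 value at 1 µM was called (log2 fold change −1.98, edgeR adjusted p = 0.0382). The call at 0.1 µM was lost without control replicate 3 (log2 fold change −1.82, adjusted p = 0.126), which had the highest count, without control replicate 4 (adjusted p = 0.0588), or without 0.1 µM replicates 1, 3 or 4 (adjusted p = 0.0539, 0.0751 and 0.0635).

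AHR itself, the receptor, stayed within a narrow range at 6 weeks, where its CPM lay between 57.5 and 64.7 over the 16 libraries and no log2 fold change exceeded 0.06 in size (adjusted p = 0.417 to 0.949, edgeR). After 12 weeks the controls had 67.5, 64.8, 73.6 and 71.7 CPM. Both lower doses lay below them, with 57.9, 58.7, 60.2 and 57.8 CPM at 0.01 µM and 62.3, 57.9, 63.2 and 58.5 CPM at 0.1 µM. The 1 µM libraries were spread from within the range of the controls to below it, with 73.4, 70.3, 57.6 and 50.3 CPM in replicates 1 to 4. The log2 fold changes were −0.25 (SE 0.0839, 95% interval −0.42 to −0.07), −0.20 (SE 0.0838, −0.38 to −0.03) and −0.15 (SE 0.0836, −0.32 to 0.03) in order of dose, with edgeR adjusted p = 0.565, 0.264 and 0.637. DESeq2 on the 8 libraries of the groups compared called the difference at 0.1 µM (adjusted p = 0.0492).

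ARNT, the dimerisation partner, ranged from 50.1 to 62.3 CPM over all 32 libraries. Its log2 fold changes lay between −0.08 and 0.07, none called. The AHRR repressor ranged from 14.5 to 23.9 CPM, with log2 fold changes from −0.19 (95% interval −0.46 to 0.09, 1 µM at 6 weeks) to 0.17 (−0.08 to 0.41, 0.1 µM at 12 weeks). AHRR lies within the read-through gene PDCD6-AHRR, which had no values under that name here, so their reads may not be separated. ALDH3A1 had 5 to 28 counts per library and log2 fold changes from −0.33 to −0.08, none called. Its interval at 0.1 µM after 12 weeks ran from −1.16 to 0.51, so that a 2-fold lower level lay within it.

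**Figure D2:**
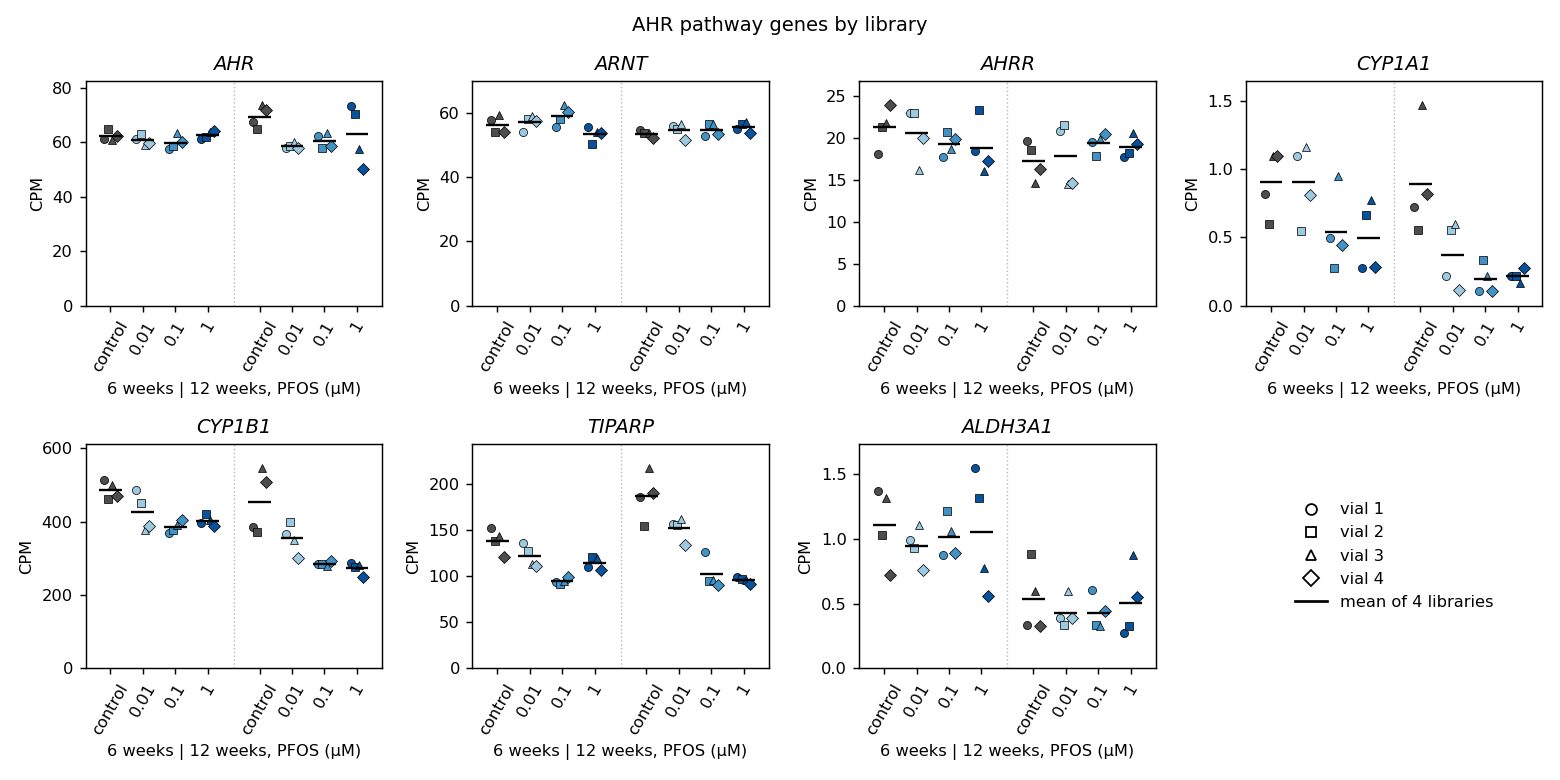
CPM of each gene in every library (y axis from 0, scale differs between genes), with 4 doses at 6 weeks left of the dotted line and 4 at 12 weeks right of it, symbols for vials and bars for means of 4 libraries. TIPARP and CYP1B1 libraries at 0.1 µM lie below all controls at both times. AHR libraries at 0.01 and 0.1 µM lie below all controls at 12 weeks but not at 6 weeks. ARNT and AHRR libraries largely overlap.

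Of the 7 members, 0, 2 and 0 were called at 0.01, 0.1 and 1 µM after 6 weeks, where 0, 4.24 and 0.28% of 12836 genes tested were called. After 12 weeks 0, 3 and 2 members were called, against 0, 1.07 and 0.22% of 12742 genes. All calls were lower, as were 2.69% of genes at 0.1 µM after 6 weeks, and 0.542% and 0.133% at 0.1 and 1 µM after 12 weeks. Where edgeR called 0 members, 2 (0.01 µM, 6 weeks), 3 (1 µM, 6 weeks) and 4 (0.01 µM, 12 weeks) had an unadjusted p below 0.05 (9.6, 13.7 and 8.48% of all genes), and DESeq2 called 0, 2 and 0 of the 5, 4 and 2 members to which it gave an adjusted p. The 2 that DESeq2 called at 1 µM after 6 weeks were CYP1B1 (adjusted p = 0.00244) and TIPARP (adjusted p = 0.00603). Groups did not overlap for 0, 2 and 1 members at 6 weeks (3.93, 12.2 and 6.85% of all genes) and for 1, 4 and 3 members at 12 weeks (2.81, 8.33 and 6.61%). The median log2 fold change of the members was −0.15 at 0.1 µM after 6 weeks and −0.33 after 12 weeks, against 0.0004 and −0.0047 over all genes. The comparisons of a time share their control libraries. The study had already named CYP1A1 as differentially expressed at 12 weeks, and CYP1B1 and TIPARP as decreasing, in these same data. The members were chosen with earlier results known, so these counts beside the shares of all genes are a description only.

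At 6 weeks the hepatocyte markers moved with dose beside these changes. Of 6 tested, 5 were called higher at 0.1 µM (AFP, AHSG, ALB, APOA1 and APOB) and 4 at 1 µM, with the ranges of the summed counts given above. Their part in the results at either time was not tested. At 12 weeks 0 of 6 were called by edgeR, with median log2 fold changes of −1.31, −1.19 and −0.88 in order of dose. An unadjusted p below 0.05 was held by 1, 2 and 0 of them, against 8.48, 15.4 and 8.75% of all genes. Without control replicate 3, whose hepatocyte markers were highest, TIPARP (log2 fold change −0.79, edgeR adjusted p = 0.00417) and CYP1B1 (log2 fold change −0.57, edgeR adjusted p = 0.0182) were still called at 0.1 µM. Both were also called at 1 µM (TIPARP −0.88, adjusted p = 0.000613, and CYP1B1 −0.63, adjusted p = 0.00933). The call of CYP1A1 at 0.1 µM was lost in that fit (log2 fold change −1.82, edgeR adjusted p = 0.126). The other 12-week libraries held hepatocyte marker counts too, so this fit shows only the weight of that library.

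Single values were also compared by exact two-sided permutation of log2(CPM + 1), 4 libraries against 4, where the smallest p is 0.0286. At 0.1 µM this p was reached by TIPARP and CYP1B1 at both times and by CYP1A1 and AHR at 12 weeks. Groups that do not overlap reach this p by construction. Over the 98 such tests of the members 24 reached it, and the lowest adjusted value was 0.117. An adjusted value of 0.05 would have needed most of the 98 tests at the smallest p, so the adjusted values decide nothing here.

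**Figure D3:**
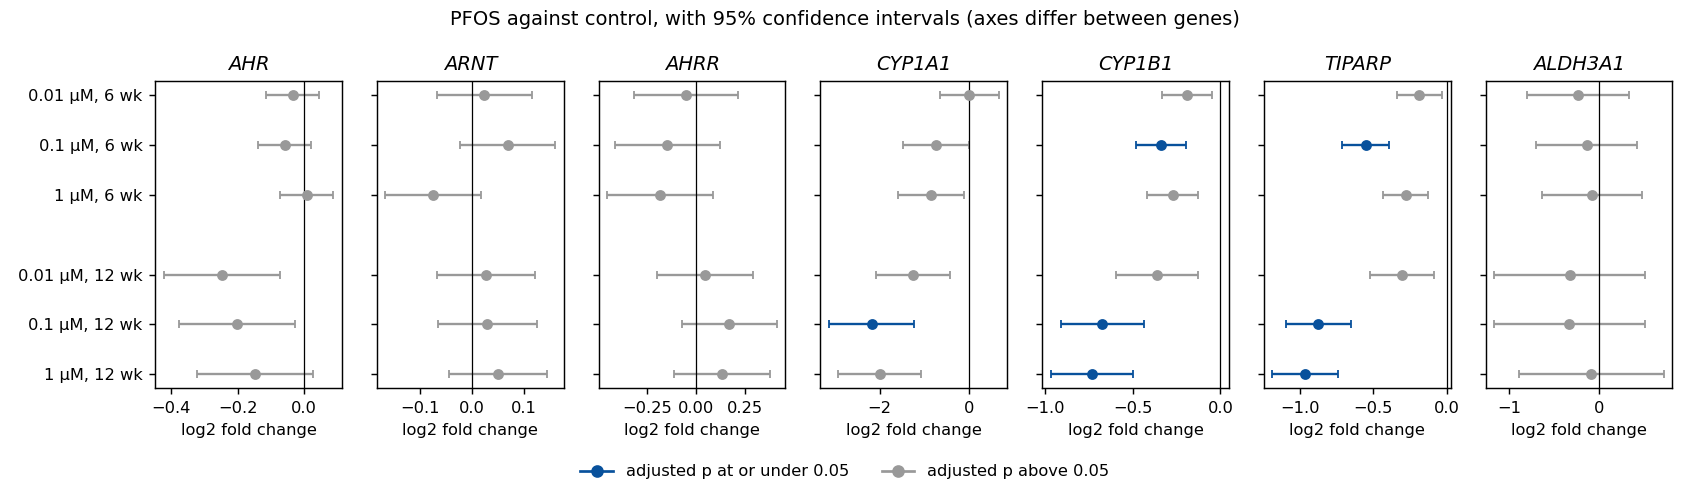
Log2 fold change of each gene against control (x axis, range differs between genes) with its 95% confidence interval, for 3 PFOS doses at 6 weeks (upper rows) and 12 weeks (lower rows), blue where the edgeR adjusted p was at or under 0.05. TIPARP and CYP1B1 lie below 0 in all 6 comparisons, farthest from it at 0.1 and 1 µM after 12 weeks.

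The order of the doses was examined as a trend over dose rank, whose value is the log2 change per step from control to 0.01, 0.1 and 1 µM. At 6 weeks TIPARP changed by −0.12 per step (SE 0.0232, edgeR adjusted p = 0.0215) and CYP1B1 by −0.10 (SE 0.0213, edgeR adjusted p = 0.0351). At 12 weeks the trends were −0.35 for TIPARP (SE 0.0332, edgeR adjusted p = 7.66e-05), −0.25 for CYP1B1 (SE 0.035, edgeR adjusted p = 0.00201) and −0.69 for CYP1A1 (SE 0.144, edgeR adjusted p = 0.0214). Lower trends were called for 2 and 3 of 7 members, against 1.26 and 0.502% of all genes (1.91 and 0.973% in either direction). The CYP1A1 trend was lost without 12-week control replicate 3 (adjusted p = 0.102) or without 1 µM replicates 1, 2 or 3 (adjusted p = 0.0572, 0.0595 and 0.0692). At 6 weeks the CYP1B1 trend was lost in 9 and the TIPARP trend in 4 of 16 fits that left out 1 library, up to adjusted p = 0.111 and 0.0716.

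A trend over rank hides steps that are unequal, so neighbouring doses were also compared, a choice made after the data were seen. No member was called by edgeR in these 4 comparisons, which called 0.0857 and 0% of genes between 0.1 and 1 µM and 0.273 and 0% between 0.01 and 0.1 µM at 6 and 12 weeks. An unadjusted p below 0.05 was held by 2 members between 0.1 and 1 µM at 6 weeks (6.25% of genes), and by 3 and 2 between 0.01 and 0.1 µM at 6 and 12 weeks (11.6 and 14.8%). Besides TIPARP, the groups did not overlap for ARNT between 0.1 and 1 µM at 6 weeks (−0.14, SE 0.0448, edgeR adjusted p = 0.511) and for CYP1B1 between 0.01 and 0.1 µM at 12 weeks (−0.31, SE 0.11, edgeR adjusted p = 0.225, where 5.82% of genes did not overlap). TIPARP at 6 weeks was lowest at 0.1 µM, and its 1 µM libraries all lay above those at 0.1 µM, as 4.32% of genes did not overlap there (log2 fold change 0.27, 95% interval 0.11 to 0.43), but the difference was not called (edgeR adjusted p = 0.443; DESeq2 adjusted p = 0.0426). From 0.01 to 0.1 µM it differed by −0.37 at 6 weeks (SE 0.0744, edgeR adjusted p = 0.0566) and −0.57 at 12 weeks (SE 0.105, edgeR adjusted p = 0.0895). With the vial as a replicate block both were called (adjusted p = 0.0353 and 0.0289), as they were by DESeq2 (adjusted p = 8.54e-05 and 8.18e-05). From 0.1 to 1 µM at 12 weeks the difference was −0.09 for TIPARP (95% interval −0.31 to 0.14), −0.06 for CYP1B1 (−0.30 to 0.17) and 0.18 for CYP1A1 (−1.08 to 1.44). In this comparison 0 members had an unadjusted p below 0.05, against 7.72% of genes, and DESeq2 called 0. These intervals still allow differences of the size of the bounds.

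Culture time was the next comparison, which holds 6 more weeks of culture and passage together with anything else that differed between the harvests, and these cannot be told apart. It was fitted over all 32 libraries, and 36.6, 42.7, 40.3 and 30.1% of 12988 genes were called in controls and at 0.01, 0.1 and 1 µM. The same cultures were sampled at both times, and the main fit did not pair them. Members called numbered 2, 4, 4 and 2 of 7. ALDH3A1 was lower at 12 weeks in each of the 4 groups, from 25, 19, 24 and 13 counts to 6, 16, 11 and 6 in controls (log2 fold change −1.04, SE 0.327, edgeR adjusted p = 0.0119). The PFOS groups gave −1.13, −1.23 and −1.04 in order of dose (edgeR adjusted p = 0.00951, 0.00488 and 0.0164). The ALDH3A1 call was lost in controls without 12-week replicate 4 (adjusted p = 0.0506). At 1 µM it was lost without replicates 1 or 2 of 6 weeks (adjusted p = 0.101 and 0.0609) or of 12 weeks (adjusted p = 0.0649 and 0.0588). TIPARP was higher at 12 weeks in controls (0.43, SE 0.0948, edgeR adjusted p = 0.000834) and at 0.01 µM (0.32, SE 0.0957, edgeR adjusted p = 0.00926). Its difference was 0.11 at 0.1 µM (edgeR adjusted p = 0.408) and −0.25 at 1 µM (edgeR adjusted p = 0.0511, 0.0275 with the replicate block).

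CYP1B1 did not pass the test between times in controls (−0.10, SE 0.0963, edgeR adjusted p = 0.426). It was lower at 12 weeks at 0.01 µM (−0.27, SE 0.0967, edgeR adjusted p = 0.0282), at 0.1 µM (−0.43, SE 0.0972, edgeR adjusted p = 0.000819) and at 1 µM (−0.56, SE 0.0973, edgeR adjusted p = 8.21e-05). The CYP1B1 call at 0.01 µM was lost without replicates 1 or 2 of 6 weeks (adjusted p = 0.125 and 0.0814) or 3 or 4 of 12 weeks (adjusted p = 0.0587 and 0.127). CYP1A1 followed with −1.26 at 0.01 µM (SE 0.406, edgeR adjusted p = 0.0115), −1.46 at 0.1 µM (SE 0.517, edgeR adjusted p = 0.0234) and −1.16 at 1 µM (SE 0.51, edgeR adjusted p = 0.0818), against −0.02 in controls. Its call at 0.01 µM was lost without 12-week replicate 4 (−0.97, adjusted p = 0.0604), and that at 0.1 µM without 6-week replicate 3 (−1.05, adjusted p = 0.146) or 12-week replicates 1 or 4 (−1.27 and adjusted p = 0.0689 in each). ARNT was lower at 12 weeks at 0.1 µM (−0.11, SE 0.0439, edgeR adjusted p = 0.042). It differed by −0.07 in controls, −0.06 at 0.01 µM and, in the other direction, 0.06 at 1 µM, which were not called. The effect of 0.1 µM on ARNT did not pass the test of a difference between the times (−0.04, SE 0.0623, edgeR adjusted p = 0.813). Nor did that of 1 µM (0.13, SE 0.0624, edgeR adjusted p = 0.405). The ARNT call was lost with DESeq2 (adjusted p = 0.0502), without a filter on low counts (adjusted p = 0.0556), and without 0.1 µM replicates 2, 3 or 4 of 6 weeks (adjusted p = 0.0524, 0.149 and 0.0957) or 1 or 4 of 12 weeks (adjusted p = 0.114 and 0.0985). AHRR in controls differed by −0.30 (edgeR adjusted p = 0.0629, 0.044 with the replicate block), and AHR in controls by 0.16 (SE 0.0661, edgeR adjusted p = 0.0582).

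Whether a PFOS effect itself differed between the times was tested as an interaction in the same fit, which did not pair the cultures. Only the effect of 1 µM on TIPARP was called among the members, larger in size at 12 weeks by −0.68 (SE 0.136, edgeR adjusted p = 0.0309), where 0.123% of 12988 genes were called. That call was lost in 11 of 32 fits that left out 1 library, among them the fit without 12-week control replicate 3 (−0.60, adjusted p = 0.0853). For CYP1B1 the difference was −0.46 at 1 µM (SE 0.137, edgeR adjusted p = 0.184) and −0.33 at 0.1 µM (SE 0.137, edgeR adjusted p = 0.254), and for CYP1A1 −1.44 at 0.1 µM (SE 0.622, edgeR adjusted p = 0.269). None of these was called. At 0.01 and 0.1 µM edgeR called 0 members, as did DESeq2, where 0 and 0.208% of genes were called. An unadjusted p below 0.05 was held by 2 and 3 members, against 7.48 and 14.5% of genes.

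Other genes of the pathway came from lists by role. Over all genes, 4.24% were called at 0.1 µM after 6 weeks and 1.07% after 12 weeks, with medians of 0.0004 and −0.0047. The trend called 1.91 and 0.973% of all genes at the 2 times. Of 5 genes of the cytosolic AHR complex, only HSP90AB1, an HSP90 isoform, was called, at 0.1 µM after 6 weeks (log2 fold change −0.18, SE 0.0402, edgeR adjusted p = 0.0173). The list had a median of −0.12 there and of −0.02 at 12 weeks. Of 16 other genes of the PAS and coactivator families, 15 were tested at 6 weeks and 14 at 12 weeks. PER1, a component of the circadian clock, was lower at 0.1 µM after 6 weeks (−0.28, SE 0.0526, edgeR adjusted p = 0.00683) and had a falling trend (−0.09 per step, SE 0.0166, edgeR adjusted p = 0.00841).

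Of 19 further genes known as AHR targets in various tissues, 15 were tested. At 0.1 µM after 6 weeks 3 were lower and 1 higher, where 4.24% of all genes were called. JAG1, a Notch ligand, fell by 0.56 on the log2 scale (SE 0.108, edgeR adjusted p = 0.00624), from 9.93 ± 1.32 to 6.74 ± 0.612 CPM (SD, n = 4). SLC7A5, an amino acid transporter that carries tryptophan, fell by 0.51 (SE 0.0905, edgeR adjusted p = 0.0131), from 232 ± 25.7 to 163 ± 6.4 CPM. The quinone reductase gene NQO1 fell by 0.25 (SE 0.0655, edgeR adjusted p = 0.0422) and HES1, a Notch effector, rose by 0.14 (SE 0.0389, edgeR adjusted p = 0.047). After 12 weeks 1 of 15 was called, SERPINB2, an inhibitor of plasminogen activators, at 0.1 µM (−1.75, SE 0.378, edgeR adjusted p = 0.0493). Its controls ranged from 12.8 to 39.3 CPM and its 0.1 µM libraries from 6.63 to 9.03 CPM. At 0.1 µM after 6 weeks DESeq2 called 6 of the 13 targets to which it gave an adjusted p. These were JAG1, SLC7A5, NQO1 and HES1 together with SERPINB2 and STC2. The list had medians of −0.01 and −0.17 at 0.1 µM at the 2 times. NFE2L2, which encodes the antioxidant regulator NRF2, had a falling trend at 12 weeks (−0.06 per step, SE 0.0154, edgeR adjusted p = 0.0459). CYP1A2 had at most 0.109 CPM in any library and was not tested.

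SLC3A2, the partner of SLC7A5, was the 1 gene called of 6 tested of the 11 on tryptophan catabolism and transport. It was lower at 0.1 µM after 6 weeks (−0.27, SE 0.0434, edgeR adjusted p = 0.00174) and had a falling trend (−0.07 per step, SE 0.0137, edgeR adjusted p = 0.0161), and SLC7A5 had one too (−0.12 per step, SE 0.0285, edgeR adjusted p = 0.0458). Of 11 genes on the making and conjugation of catechol estrogens, 9 were tested at 6 weeks and 8 at 12 weeks, and edgeR called 0 in any PFOS comparison. At 0.1 µM after 6 weeks 5 of the 9 had an unadjusted p below 0.05, against 20.8% of all genes, and DESeq2 called 1, GSTP1. At 0.01 and 1 µM edgeR called 0 genes of the 5 lists at either time. In list order (complex, PAS family, targets, tryptophan, catechol estrogens) an unadjusted p below 0.05 was held by 0, 1, 4, 2 and 0 genes at 0.01 µM and 1, 3, 3, 2 and 2 at 1 µM after 6 weeks, against 9.6 and 13.7% of all genes. After 12 weeks it was held by 2, 0, 2, 1 and 0 genes at 0.01 µM and 0, 1, 2, 1 and 0 at 1 µM, against 8.48 and 8.75% of all genes. At 0.1 µM after 12 weeks, 1, 2, 4, 1 and 1 genes had such a p, against 15.4% of all genes, and DESeq2 called ALDH1A3, NQO1 and SERPINB2, all of the targets. DESeq2 also called PER1, SLC7A5, SLC3A2 and GSTP1 at 1 µM after 6 weeks and 0 in the other 3 comparisons at 0.01 and 1 µM.

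**Figure D4:**
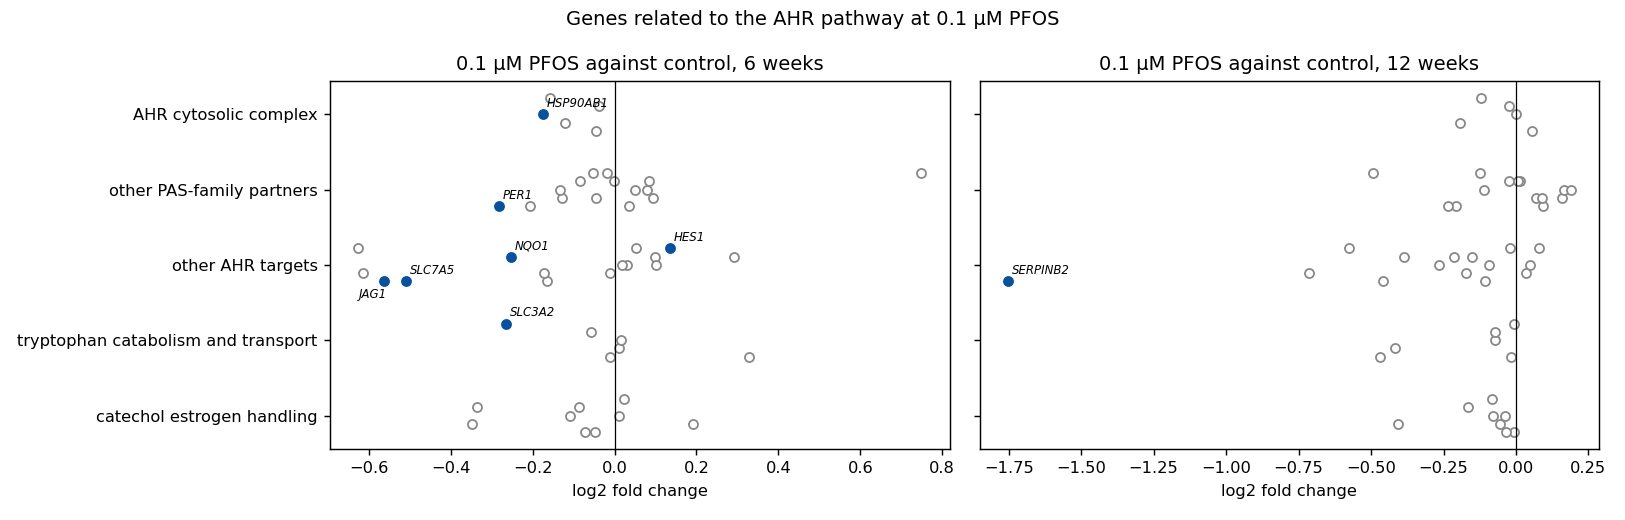
Log2 fold change at 0.1 µM PFOS against control (x axis, range differs between panels) of each tested gene of 5 lists, 6 weeks left and 12 weeks right, with filled points where the edgeR adjusted p was at or under 0.05. Named points are called, 7 at 6 weeks and SERPINB2 at 12 weeks, and most other points lie around 0.

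With culture time, genes of each of these lists were called in controls, where 19.3% of all genes were called lower and 17.3% higher. Of 9 tested genes of catechol estrogen handling 7 were lower at 12 weeks, among them SULT1A1 (−0.46) and POR (−0.29), which supplies electrons to P450 enzymes. SULT1E1, the estrogen sulfotransferase, had 0.708 to 1.60 CPM in 6-week controls and 0 to 0.11 CPM in 12-week controls. Of 16 tested AHR targets 7 were lower and 2 higher, and the lower ones included ALDH1A3 (−1.78) and NQO1 (−0.53). Of 15 PAS and coactivator genes 5 were lower and 2 higher, with ARNT2 at −1.81, EPAS1 at −0.96 and HIF1A at −0.82. This list had a median log2 fold change of −0.07, against 0.004 over all genes. The cytosolic complex had 0 lower and 1 higher of 5 tested, and tryptophan catabolism and transport 0 lower and 1 higher of 6. Markers of other cells moved too, with 4 of 6 tested hepatocyte markers higher and 2 of 4 tested endothelial markers (ENG and PECAM1) lower at 12 weeks, and their part in these differences was not tested.

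The genes whose pattern over the 32 libraries was most like that of a member were taken by Pearson's r of log2 CPM over 12988 genes, as a description, since libraries share vials, doses and times. For CYP1B1 these included IER3 (r = 0.889) and TSC22D1 (0.863), and for TIPARP MAFF (0.907), CSRNP1 (0.864) and NR4A3 (0.863). Those of CYP1A1 included MGAT1 (0.785) and NDEL1 (0.758). ALDH3A1 was most like DOCK11 (0.86), SH3BP5 (0.849) and GADD45B (0.84). For AHRR the genes were CMIP (0.788), ATXN2L (0.781) and LASP1 (0.766), and for AHR QPCT (0.731), CLIC4 (0.709) and MAML2 (0.704). ARNT had the lowest values, with PLXNB1 (0.635), TCTN2 (0.634) and TSC2 (0.623). Members themselves were left out of the ranking.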

How the data were processed

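RNA of 32 HGrC1 cultures was sequenced by the submitters from stranded poly(A) libraries on a DNBSEQ platform. Reads were filtered and aligned to GRCh38.p14 or to reference genes. The submitters' processing notes name HISAT2 2.0.4, Bowtie2 2.2.5 and RSEM 1.2.8. The authors deposited expected counts per gene from RSEM, not normalized, and TPM values, which are relative to transcript length and depth. Counts were rounded here, 0 columns were unmapped, and total counts per library lay between 17907057 and 18553350. Of 48 replicate pairs 0 were identical.

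Tests used edgeR 4.0.16 in R 4.3.3 (limma 3.58.1, robust quasi-likelihood, TMM, low-count filter by group, two-sided, Benjamini-Hochberg over all genes). DESeq2 1.42.0 was an alternative, with RLE scaling, no filter, at least 10 counts in every library, fewer or more libraries in the fit, and each library left out. P-values measure the spread between vials of 1 line. CPM used TMM. The labels state that the flask of each of 4 vials was divided over the doses. That equal replicate numbers mean the same vial was inferred from the sample titles. The counts of vials and the replicate block rest on this. The mean correlation of same-numbered deviations lay between 0.0496 and 0.0834 over 6 group pairs at 6 weeks and between −0.0929 and 0.153 at 12 weeks. Named genes were the members, list genes called under PFOS (at most 5 per list) and the 3 most alike genes per member. SERPINB2, the list genes named for culture time, those named as called by DESeq2 alone, and CYP1A2 were chosen after their values were seen. Of the genes under this rule, 1 is not reported here. The members and lists were chosen with earlier results of these data known. FPKM and normalized count tables were not used. Figures used Python 3.11.15 with matplotlib 3.10.9.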

Additional observations from a re-analysis of the deposited data

Results flagged for a closer look

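TIPARP at 0.1 µM after 12 weeks held 1 library apart from the others. Replicate 1 had 127 CPM and the other 3 libraries 91.0 to 95.9 CPM, a gap of 0.841 of the whole range. Of 56 groups checked, 1 was flagged, and chance flags about 1 in 20. Without this library the TIPARP fold change against control was −1.0 on the log2 scale (edgeR adjusted p = 6.1e-06). The difference from 0.01 µM, which edgeR did not call with it, was then −0.70 (edgeR adjusted p = 0.000948).

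The effect of 1 µM PFOS on TIPARP differed between 6 and 12 weeks by an interaction term (−0.68 on the log2 scale, edgeR adjusted p = 0.0309). The call was lost in 11 of 32 fits that left out 1 library (adjusted p up to 0.0943) and without a filter on low counts (adjusted p = 0.0535).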

How the results depend on the processing

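The number of members called moved with the libraries in the fit. At 0.1 µM after 6 weeks it was 1 with all 32 libraries instead of 2. At 1 µM after 6 weeks it was 2 with DESeq2, 1 with the 8 libraries of both groups and 2 with DESeq2 on those 8, instead of 0. With 8 libraries it was 1 at both 0.1 and 1 µM after 12 weeks, instead of 3 and 2. The 6-week trend gave 1 without a filter and 0 with all 32 libraries, instead of 2. Between times, at least 10 counts in every library gave 1, 2 and 2 in controls and at 0.01 and 0.1 µM, a filter under which CYP1A1 and ALDH3A1 could not be fitted. The change with time at 1 µM gave 0 without a filter. Leaving out 1 library gave 1 to 2 (0.1 µM) and 0 to 1 (1 µM) at 6 weeks, 2 to 3 at both doses at 12 weeks, 0 to 2 and 2 to 3 for the trends, 1 to 3, 2 to 4, 2 to 4 and 1 to 3 between times, and 0 to 1 for the change with time at 1 µM. Of the 21 most alike genes, 11 were shared with Spearman's rho and 4 with deviations from group means. No value reversed.

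With the vial as a replicate block, CYP1A1 at 1 µM after 12 weeks (adjusted p = 0.0382), AHRR in controls (0.044) and TIPARP at 1 µM (0.0275) between times, and TIPARP from 0.01 to 0.1 µM (0.0353 and 0.0289) were gained, and no other call of a member changed. Of the values of single genes under the alternatives, 1496 kept their side of the threshold, 53 passed it newly and 62 lost it. Apart from the alternatives' own construction, the cause was not tested. Depth limits CYP1A1 and ALDH3A1, whose lowest libraries held 2 and 5 counts.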
